A study of Mus musculus with 2 samples.

Results

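The cytochrome P450 genes of the mouse were followed in liver RNA of a Drp1 knockout (KO) and of wild type (WT) after prolonged high-fat feeding. Members were all array probes whose gene name is Cyp followed by a number, a letter and a number, with Cyp51 left out. That rule gave 95 genes of 16 families and 38 subfamilies, on 120 of the 39429 gene probes, out of 30165 genes in all. It used names only and no measured value. Family 2 is the largest, with 46 genes, followed by family 4 with 20 and family 3 with 8. The names are those of the array's design: Cyp2c44 is called Cyp2c23 in current RefSeq, and 5 names carry a pseudogene suffix, which current RefSeq no longer gives to Cyp2j7, Cyp4a29 and Cyp4a30b.

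Cytochromes P450 are haem-containing oxygenases of the endoplasmic reticulum and mitochondria that insert 1 oxygen atom into a substrate, with electrons handed on by P450 reductase, cytochrome b5 or ferredoxin. The liver holds most of the body's drug- and toxin-metabolising forms, which belong mainly to families 1, 2 and 3. Family 4 hydroxylates fatty acids at their far end, and single genes of the higher-numbered families carry out steps of bile acid, steroid, vitamin D and retinoic acid metabolism. Many of the genes answer to nuclear receptors: Nr1i3 (CAR) and Nr1i2 (PXR) for drug-metabolising forms, Ppara for Cyp4a forms and retinoic acid receptors for Cyp26a1.

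The knockout is labelled as lacking Drp1, the product of Dnm1l, a GTPase of the dynamin family that carries out mitochondrial fission. The wild type is its control, and both samples are male C57BL/6J liver. Both groups ate a lard-based diet with 24% fat (45% of the energy) for 24 weeks from 4 weeks of age. The series title places the disruption in the liver, while the labels name no Cre driver, no deleted exon and no number of mice per sample. Livers in the study were taken either after a fast of 17 hours or after 4 hours of refeeding, and the labels do not say which holds for either sample, so that feeding state, hour and genotype cannot be told apart. Each group held 1 one-colour Agilent array, so the differences stand without replication and no test between knockout and wild type could be made.

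Levels are given relative to each array's own 75th percentile signal, set to 1. They may be set against each other between arrays for the same gene but not between genes, because probes differ in brightness. A difference is the log2 level in the knockout minus that in wild type. A gene counts as higher or lower from 1.5-fold. A gene was measured where a probe was well above background on both arrays, as was so for 15385 genes, and its value is the mean over such probes. The SD between replicate spots was 0.08 log2 units in the knockout and 0.11 in wild type, which gives a difference an SD of 0.14 by spot error alone. This error leaves out labelling, hybridisation and animals. For 2 members the array carried 10 copies of a probe. Cyp27a1, the sterol 27-hydroxylase, lay between 4.51 and 5.17 over the 10 knockout spots and between 3.62 and 4.22 over the 10 wild type spots. Cyp2c29 lay between 31.6 and 35.2 on the knockout array and between 53.3 and 58.7 on the wild type array. Copies on an array repeat 1 RNA sample, so their spread does not measure a difference between livers. Scaling to the labelling spike-in spots moved the difference of Cyp27a1 from 0.34 to 1.12 and that of Cyp2c29 from -0.76 to 0.02.

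Several values of the whole arrays bear on what follows. Dnm1l itself stood at 1.75 in the knockout and 2.03 in wild type by its single probe, and with the deleted part not stated this probe does not check the label. Fgf21, the liver hormone of the study's title, stood at 20.2 in the knockout and 3.37 in wild type. Of 12 hepatocyte markers 1 was higher and 5 were lower, with a median difference of -0.57 and a summed level of 3228 in the knockout and 4701 in wild type. Over all measured genes the median was -0.11, and over those at or above the median P450 level it was -0.28. Differences of all markers hold at the scaling used here, and spike-in scaling would move each up by 0.78. Marker values under loess normalization, which removes a dependence on level, are not given. The bright P450 gene Cyp2e1 (312 in KO and 471 in WT) moved under loess from -0.59 to -0.13. Markers of several other liver cells held more higher than lower genes: 8 of 10 measured stellate cell and fibroblast markers were higher (summed level 71.5 in the knockout, 48.1 in wild type), as were 4 of 10 macrophage markers (93.6 in KO and 73.3 in WT) and 4 of 5 cholangiocyte markers (1.85 in KO and 0.877 in WT), while Epcam was below background on both arrays. Of 8 endothelial markers 2 were higher and 0 lower (median 0.30, summed level 36.7 in KO and 38.3 in WT). Of 7 measured lymphocyte markers 3 were higher and 1 lower (median 0.46, summed level 3.54 in KO and 3.60 in WT). Of 12 skeletal muscle markers, 9, Ckm and Acta1 among them, were well above background in wild type alone. In bulk RNA, fewer cells of a type and less RNA per cell cannot be told apart, and the part of these markers in the P450 differences was not tested.

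The probes and promoter that the results turn on most are shown here. All are 60 bases long, and the first 3 are in lower case throughout. The Cyp26a1 probe carries the greatest difference of the family and lies at chr19:37775566-37775625 (mm9, plus strand). The Cyp3a11 probe is the more 5′ of the gene's pair and crosses an exon junction within chr5:146672058-146673925 (mm9, minus strand). The Cyp2b9 probe lies at chr7:26983484-26983543 (mm9, plus strand). The probes of Cyp4a10, at chr4:115198463-115198522, and of Cyp4a31, at chr4:115243923-115243982 (both mm9, plus strand), are set side by side with their differing bases in capitals.
Cyp26a1 probe: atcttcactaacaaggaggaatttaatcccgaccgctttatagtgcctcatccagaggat
Cyp3a11 probe: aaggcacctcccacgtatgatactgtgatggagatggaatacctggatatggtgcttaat
Cyp2b9 probe: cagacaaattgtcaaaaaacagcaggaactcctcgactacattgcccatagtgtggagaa
Cyp4a10 probe: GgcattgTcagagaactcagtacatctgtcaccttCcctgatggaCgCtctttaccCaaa
Cyp4a31 probe: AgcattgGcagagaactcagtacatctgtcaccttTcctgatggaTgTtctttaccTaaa

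The Cyp4a10 and Cyp4a31 probes share 54 of 60 bases, and their differences were 0.78 and 0.75. A second pair from the same genes shares 44 of 47 compared bases, with differences of -0.05 and 0.02. Probes of Cyp2c67 and Cyp2c68 share 55 of 59 bases (differences -0.96 and -0.70), and those of Cyp2c37 and Cyp2c50 share 35 of 40 (differences -1.34 and -1.13). Such pairs can pick up each other's transcripts, so the members of a pair are not separate observations.

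The promoter of Cyp26a1 holds a retinoic acid response element of the direct repeat 5 type, in capitals in the 250 bases before the start site at chr19:37697558-37697807 (GRCm38.p6, plus strand, from RefSeq).
Cyp26a1 promoter: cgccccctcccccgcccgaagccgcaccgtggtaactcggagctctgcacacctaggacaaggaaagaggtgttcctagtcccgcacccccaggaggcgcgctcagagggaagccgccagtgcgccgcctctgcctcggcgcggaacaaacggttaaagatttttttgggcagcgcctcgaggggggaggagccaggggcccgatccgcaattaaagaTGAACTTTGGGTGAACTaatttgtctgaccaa

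RefSeq promoter windows, 300 bases each with 250 before and 50 after the start, could be matched to 69 of the 95 names and gave 79 windows. The direct repeat 5 element, searched on both strands, was found in 1 of the 79 P450 windows and in 0.0974% of all 32851 windows. It begins at position -32 from the start site. The strict direct repeat 1 and direct repeat 4 elements were found in 0 P450 windows, and in 0.222% and 0.0822% of all windows. Of the 8 Cyp4a genes only 3 had a window (Cyp4a29-ps, Cyp4a30b-ps and Cyp4a32), so Cyp4a10, Cyp4a12a, Cyp4a12b, Cyp4a14 and Cyp4a31 were not searched. The motif TTCNNNGAA, bound by Stat5 factors, which carry growth hormone signals, was in 4 of the 79 windows (5.06%) and in 8.30% of all. The motif CAAAGTCCA, a core sequence bound by the liver factor Hnf4a, was in 8 of the 79 windows (10.1%) and in 0.475% of all. The motifs were chosen with the values known, and a match is a description of the letters only.

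The 8 genes were Cyp2c65, Cyp2c67, Cyp2c68, Cyp2c70, Cyp3a11, Cyp3a16, Cyp3a41b and Cyp8b1. All 8 Cyp3a members had a window, and the 3 that hold the motif are the 3 called higher. Of these 3, Cyp3a16 and Cyp3a41b have the same printed stretch, and Cyp3a11 loses its call with its brightest probe (0.23). Cyp3a25, Cyp3a57 and Cyp3a59, without the motif, were measured on both arrays and lay within 1.5-fold. Both Cyp2c67 and Cyp2c68, which hold it too, were lower. Cyp2c70 (-0.15) and Cyp8b1 (0.25) lay within 1.5-fold, and Cyp2c65 was below background on both arrays. The part of the motif in any level or difference was not tested. The stretches around the motif are printed here with the motif in capitals, and for Cyp3a44, which was below background on both arrays, with the bases that differ from Cyp3a41b in capitals. They are on the minus strand of GRCm38.p6, at chr5:145879940-145879978 for Cyp3a11, chr5:145469799-145469837 for Cyp3a16, chr5:145584802-145584840 for Cyp3a41b, chr5:145805946-145805984 for Cyp3a44, chr19:39649144-39649182 for Cyp2c67 and chr19:39741155-39741193 for Cyp2c68.
Cyp3a11: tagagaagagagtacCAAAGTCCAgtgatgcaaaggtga
Cyp3a16: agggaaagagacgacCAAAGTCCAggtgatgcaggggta
Cyp3a41b: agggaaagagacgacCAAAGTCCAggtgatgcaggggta
Cyp3a44: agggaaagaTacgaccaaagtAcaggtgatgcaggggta
Cyp2c67: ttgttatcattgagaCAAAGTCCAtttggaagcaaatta
Cyp2c68: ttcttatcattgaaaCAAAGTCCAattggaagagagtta

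The Cyp3a44 stretch matches that of Cyp3a41b at 37 of 39 bases, and 1 of the differing bases falls inside the motif.

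Of the 95 genes, 72 were measured on both arrays, 21 were below background on both and 2 were well above background in the knockout only. Among the 72, 11 were higher in the knockout (15.3%) and 27 were lower (37.5%), while 34 lay within 1.5-fold. Over all 15385 measured genes the shares were 8.42% higher and 13.4% lower. At 2-fold, 6 P450 genes were higher and 12 lower, against 2.91% and 3.64% of all genes. The median P450 difference was -0.20 and that of all genes -0.11. The shares of P450 genes were higher than those of all genes in both directions, and the direction differed between families, as the plots of levels and of differences by subfamily show.

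**Figure D1:**
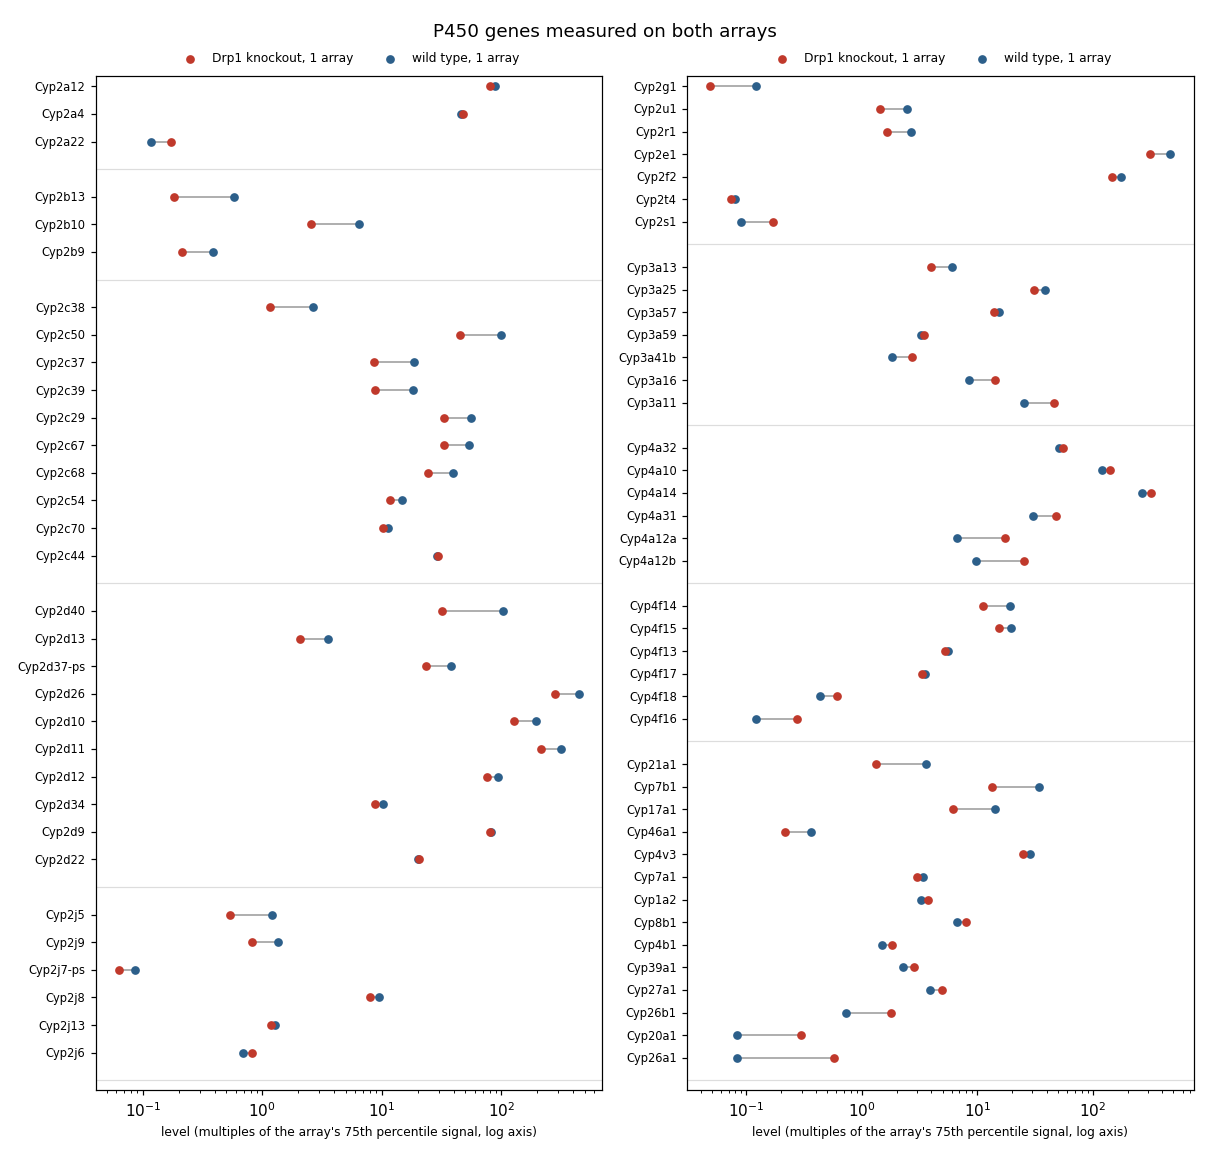
Level of each of the 72 P450 genes measured on both arrays, in multiples of the array's 75th percentile signal on a log axis, with the Drp1 knockout in red and wild type in blue (1 array each) and genes ordered by difference within each subfamily. Red lies left of blue for most Cyp2b, Cyp2c and Cyp2d genes and right of it for the 6 Cyp4a genes (scaling to spike-in spots would move each difference up by 0.78 log2 units); levels of different genes are not comparable.

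The shares of all genes depended on level, those of the P450 genes hardly so. Among the 36 P450 genes at or above the median P450 level, 5 were higher and 13 lower (13.9% and 36.1%), against 2.25% and 16.1% of the 2440 genes of all kinds at such levels. Among the 36 P450 genes below it, 6 were higher and 14 lower (16.7% and 38.9%), against 9.59% and 12.9% of the 12945 genes of all kinds there. The medians differed little at like levels. At or above the median P450 level they were -0.28 for P450 genes and -0.28 for all genes, and below it -0.11 and -0.06. The counts did depend on scaling. After loess normalization, which removes a dependence on level, 14 P450 genes were higher and 18 lower (19.4% of the 72 were higher), against 9.79% and 9.50% of all genes, with medians of 0.00 for both. The direction of each difference is relative to the array's own signals: scaled to the labelling spike-in spots, all differences moved up by 0.78, which made 35 P450 genes higher and 3 lower; the P450 median was then 0.57 and that of all genes 0.67.

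Family 2, the main family of drug-metabolising P450s, was mostly lower in the knockout. Of its 39 measured genes 1 was higher and 21 were lower, with a median of -0.59 (0.19 under spike-in scaling, where all genes had 0.67, and -0.20 under loess, where 2 were higher and 14 lower). The 33 measured genes of the other families divided into 10 higher and 6 lower, with a median of 0.25.

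**Figure D2:**
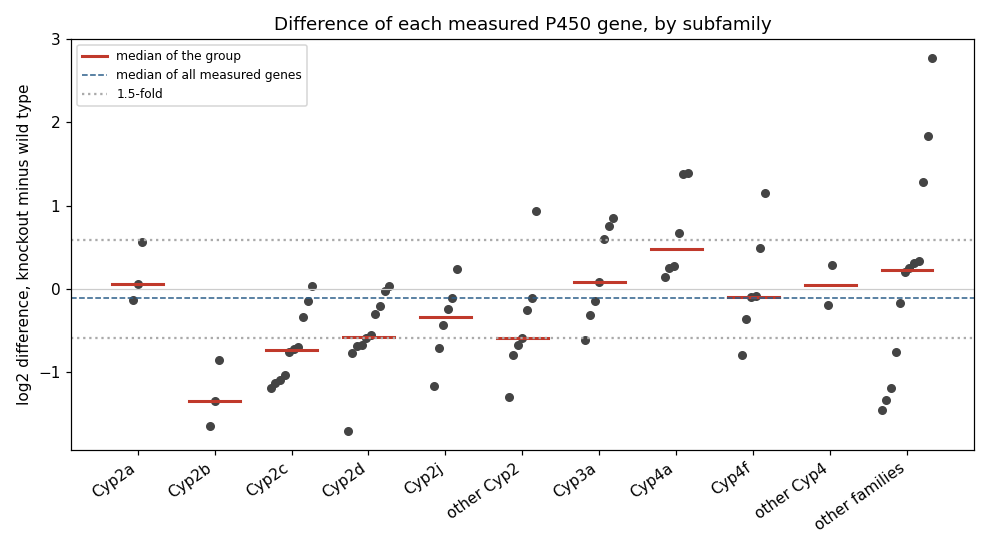
Log2 difference, knockout minus wild type, of each measured P450 gene (points) by subfamily, with the group median (red bar), the median of all measured genes at -0.11 (dashed) and the 1.5-fold limits (dotted). All 3 Cyp2b genes and 7 of 10 Cyp2c genes lie below the lower limit and 3 of 6 Cyp4a genes above the upper one. Under spike-in scaling each point moves up by 0.78. Under loess 4 of 10 Cyp2c genes lie below the lower limit and 5 of 6 Cyp4a genes above the upper one.

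The Cyp2b genes lie together on chr7:26711522-27557604 (mm9), and 3 of the 5 were measured. Cyp2b10, the classic target of CAR, stood at 2.55 in the knockout and 6.51 in wild type, a 2.55-fold lower level. Cyp2b13, a form more abundant in female liver, stood at 0.184 in KO and 0.580 in WT, 3.15-fold lower. Cyp2b9, also female-biased, stood at 0.214 in KO and 0.388 in WT, 1.81-fold lower. Under spike-in scaling the 3 differences were -0.57, -0.88 and -0.08. Only Cyp2b13 then stayed at least 1.5-fold lower, and Cyp2b9 lay within the spot error of 0.14. Cyp2b19 and Cyp2b23 were below background on both arrays.

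The Cyp2c subfamily, which oxidises drugs and makes epoxides of arachidonic acid, had 7 lower and 0 higher genes of 10 measured, with a median of -0.74. Under loess, quantile normalization and in the authors' deposited value table, only 4 of the 10 were lower and 0 higher, with medians of -0.45, -0.44 and -0.44, and under spike-in scaling 0 were lower and 2 higher, with a median of 0.04. Its 12 clustered genes lie on chr19:39116674-40228028 (mm9), with Cyp2c44 elsewhere. Cyp2c50 stood at 45.4 in the knockout and 99.5 in wild type, 2.19-fold lower. Cyp2c37 stood at 8.69 in KO and 18.6 in WT, 2.14-fold lower, and its pair of probes gave -0.86 and -1.34. Cyp2c39 stood at 8.78 in KO and 18.1 in WT, 2.06-fold lower. The differences of Cyp2c50, Cyp2c37 and Cyp2c39 were -1.13, -1.10 and -1.04 here, -0.80, -0.89 and -0.82 under loess and -0.35, -0.32 and -0.26 under spike-in scaling.

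Cyp2c38 was 2.28-fold lower by the mean of its probes, but the probes differed in size. The brighter one had 8.19 in the knockout and 28.6 in wild type (-1.80), and the dimmer one 0.168 in KO and 0.250 in WT (-0.57). Cyp2c29, at 32.9 in KO and 55.9 in WT, was 1.70-fold lower, Cyp2c67 1.65-fold (32.9 in KO and 54.2 in WT) and Cyp2c68 1.62-fold (24.4 in KO and 39.5 in WT). Cyp2c44, an epoxygenase, stood at 29.8 in KO and 29.2 in WT, and Cyp2c70, the enzyme that makes muricholic acids in mice, at 10.2 in KO and 11.3 in WT. Both therefore lay near 0, at 0.03 and -0.15. Cyp2c54, at -0.34, was not called either.

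All 10 Cyp2d genes were measured, and they lie within 416 kb at chr15:82204377-82620634 (mm9). Of them 5 were lower and 0 higher, with a median of -0.58. Under loess, quantile normalization and in the deposited table, only 2 of the 10 were lower and 0 higher, with medians of -0.17, -0.12 and -0.12, and under spike-in scaling 1 was lower and 2 higher, with a median of 0.20. Cyp2d40 stood at 31.8 in the knockout and 104 in wild type, 3.28-fold lower, the greatest decrease of any measured P450 gene under the processing used here. The other lower genes, Cyp2d13, Cyp2d37-ps, Cyp2d26 and Cyp2d10, were between 1.51- and 1.70-fold lower. Cyp2d13 stood at 2.07 in KO and 3.53 in WT and Cyp2d37-ps at 23.6 in KO and 38.1 in WT. Cyp2d26 for instance stood at 282 in KO and 448 in WT, and Cyp2d10 at 129 in KO and 194 in WT. Cyp2d9, a male-biased testosterone hydroxylase, stood at 80.4 in KO and 82.0 in WT, and Cyp2d22 at 20.5 in KO and 20.0 in WT, and the probes of Cyp2d34 gave 0.01 and -0.43, so neighbours in 1 gene cluster ranged from near 0 to over 3-fold.

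Among the Cyp2j genes, which make epoxides of fatty acids, 2 of 6 measured were lower and 0 higher. Cyp2j5 stood at 0.533 in the knockout and 1.20 in wild type, 2.26-fold lower. Cyp2j9 stood at 0.825 in KO and 1.35 in WT, 1.63-fold lower. Cyp2j6 had 1 probe at 2.13 in KO and 1.26 in WT (0.75) and another at 0.315 in KO and 0.379 in WT (-0.27), so its direction is not settled. For Cyp2j8 and Cyp2j13 only 1 probe was measured on both arrays, with differences of -0.24 and -0.11.

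Of the remaining family 2 genes, Cyp2e1, the ethanol-metabolising form, stood at 312 in the knockout and 471 in wild type, 1.51-fold lower, with probes at -0.47 and -0.71. Its difference of -0.59 came to -0.13 under loess and -0.02 under quantile normalization and in the value table, which ends the call. Cyp2r1, the main 25-hydroxylase of vitamin D, stood at 1.66 in KO and 2.66 in WT, 1.61-fold lower, with both probes negative. Cyp2u1, a fatty acid hydroxylase, was 1.73-fold lower by its mean, but its brightest probe had 177 in KO and 184 in WT (-0.05) while the other probes gave -0.74 and -1.58. That spread of 1.53 log2 units was the greatest among the members. Cyp2g1, known from olfactory tissue, was 2.46-fold lower at the dim levels of 0.0488 in KO and 0.120 in WT. Cyp2s1 was the only family 2 gene called higher under the processing used here, 1.90-fold, at 0.171 in KO and 0.0902 in WT, and its difference of 0.93 shrank to 0.21 after normexp correction, which ends the call. The Cyp2a genes differed little: Cyp2a4 stood at 47.9 in KO and 45.9 in WT and Cyp2a12 at 81.3 in KO and 89.6 in WT, while the dim Cyp2a22 stood at 0.171 in KO and 0.116 in WT.

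Family 3, whose members metabolise many drugs and steroids, divided. Of 7 measured Cyp3a genes 3 were higher and 1 lower, and the median was 0.08 (-0.15 with the 3′-most probe of each gene). Cyp3a11, the main PXR-responsive form of mouse liver, stood at 45.8 in the knockout and 25.5 in wild type, 1.80-fold higher by the mean of both probes. Its probes gave 1.46 and 0.23, so the size depends on the probe. Cyp3a16, at 14.2 in KO and 8.44 in WT, was 1.68-fold higher, and Cyp3a41b, at 2.74 in KO and 1.81 in WT, 1.52-fold higher; both are forms of fetal and female liver. Cyp3a13 stood at 3.95 in KO and 6.01 in WT, 1.52-fold lower, with probes at -0.35 and -0.86, and it lies apart from the cluster of 7 genes at chr5:146151322-146924544 (mm9). Cyp3a25, Cyp3a57 and Cyp3a59 lay between -0.32 and 0.08, and the probes of Cyp3a59 had opposite signs (0.38 and -0.22).

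The targets of CAR and PXR taken as a list had 1 higher and 5 lower genes of 8 measured, with a median of -0.69. Cyp3a11 was the higher one, and Cyp2b10, Cyp2c29, Cyp2c37, Cyp2c50 and Cyp3a13 were the lower ones. The members between the limits were Cyp2a4 and Cyp2c54. Cyp2c54 had probes at 0.01, -0.08 and -0.95, so its mean of -0.34 stands for no single probe. Of the genes that the aryl hydrocarbon receptor induces, Cyp1a2 stood at 3.76 in the knockout and 3.27 in wild type, while Cyp1a1 was below background on both arrays. Cyp1b1 was well above background in the knockout alone (0.124 against 0.0155 in wild type), a level at least 2.10-fold higher.

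In family 4, 4 of 14 measured genes were higher, 1 was lower and 9 lay within 1.5-fold, with a median of 0.26. That median ranged from 0.03 without a filter on dim probes to 1.04 under spike-in scaling, and was 0.08 with the brightest or the 3′-most probe. The positive differences lay mainly in Cyp4a, while the 6 measured Cyp4f genes had a median of -0.09. All 6 measured Cyp4a genes, which hydroxylate fatty acids, had positive differences, and 3 reached 1.5-fold. Cyp4a12a stood at 17.3 in the knockout and 6.63 in wild type, 2.60-fold higher, and its near-copy Cyp4a12b at 25.5 in KO and 9.76 in WT, 2.62-fold higher. Both are male-biased and form 20-hydroxyeicosatetraenoic acid from arachidonic acid, and their transcripts are so alike that the probes may read both. The subfamily median was 0.47, and it stayed above 0 under each processing alternative, between 0.21 with the brightest probe of each gene and 1.25 under spike-in scaling.

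The Cyp4a genes that Ppara induces differed less than Cyp4a12a and Cyp4a12b, with 1 higher and 0 lower of 4 at the scaling used here. Under loess Cyp4a10, Cyp4a14 and Cyp4a31 were all called higher (0.63, 0.71 and 0.97), and Cyp4a32 was not (0.45). Cyp4a14 stood at 322 in the knockout and 265 in wild type, a difference of 0.28. Cyp4a32 stood at 55.7 in KO and 50.6 in WT (0.14). Cyp4a31 was 1.59-fold higher by its mean, at 48.4 in KO and 30.4 in WT. Its probes at positions 713, 1158 and 1982 of the transcript gave 1.24, 0.75 and 0.02. Cyp4a10 stood at 142 in KO and 119.7 in WT, and its probes at positions 1193, 1981 and 2031 gave 0.78, 0.02 and -0.05. In both genes the 3′ probes were the brightest, and at the scaling used here they showed no difference beyond spot error. Spike-in scaling would move each of these probes up by 0.78. Values of single probes under loess are not given, while the mean of Cyp4a10 moved under loess from 0.25 to 0.63.

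The Cyp4f genes, which hydroxylate leukotrienes and fatty acids, had 1 higher and 1 lower of 6 measured. Cyp4f16 stood at 0.272 in the knockout and 0.122 in wild type, 2.22-fold higher, or by 0.58 log2 units after normexp correction, just short of a call. Cyp4f14 stood at 11.1 in KO and 19.1 in WT, 1.73-fold lower. The dim Cyp4f18, at 0.609 in KO and 0.432 in WT, fell short of 1.5-fold with probes at 0.47 and 0.52, while Cyp4f13, Cyp4f15 and Cyp4f17 lay between -0.36 and -0.09. Cyp4b1 and Cyp4v3 stood at 0.29 and -0.20.

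The P450s of bile acid synthesis had 0 higher and 2 lower of 7 measured, with a median of -0.15. Cyp7b1, the oxysterol 7-alpha-hydroxylase of the acidic pathway, stood at 13.5 in the knockout and 34.2 in wild type, 2.53-fold lower, by a single probe at position 1770 of the transcript (chr3:17972286-17972345, mm9). Cyp46a1, the cholesterol 24-hydroxylase known from neurons, was 1.70-fold lower at the dim levels of 0.216 in KO and 0.366 in WT. Cyp7a1, the rate-limiting enzyme of the classic pathway, stood at 3.00 in KO and 3.37 in WT, with a difference of -0.17. Cyp8b1, the sterol 12-alpha-hydroxylase, stood at 7.91 in KO and 6.66 in WT. Cyp27a1, at 4.94 in KO and 3.91 in WT, and Cyp39a1, at 2.83 in KO and 2.29 in WT, were 1.26- and 1.24-fold higher, less than the limit for a call.

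Of 6 genes of steroid hormone synthesis, both that were measured were lower. Cyp17a1, the steroid 17-alpha-hydroxylase, stood at 6.21 in the knockout and 14.2 in wild type, 2.28-fold lower. Cyp21a1, the 21-hydroxylase of the adrenal, stood at 1.32 in KO and 3.61 in WT, 2.74-fold lower, by a probe at position 1858, while its other probe, at position 399, was below background on both arrays and, where dim probes were averaged in, brought the difference from -1.46 to -0.78. The adrenal and gonadal genes Cyp11a1, Cyp11b1, Cyp11b2 and Cyp19a1 were below background on both arrays. For vitamin D, Cyp2r1 was lower, as above, and the kidney genes Cyp27b1 and Cyp24a1 were below background on both.

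The retinoic acid hydroxylases were higher. Cyp26a1, which clears all-trans retinoic acid and is itself switched on by it, stood at 0.571 in the knockout and 0.0832 in wild type, 6.87-fold higher. This was the greatest difference of any measured P450 gene under the processing used here, though its size depended on the background correction: the log2 difference was 2.78 here and 1.63 after normexp correction. It stayed above 1.5-fold under each alternative that retained the gene. Cyp26b1, the related enzyme, stood at 1.78 in KO and 0.733 in WT, 2.42-fold higher. Cyp26c1 was below background on both arrays. Lrat, the enzyme that stores retinol as esters and a stellate cell marker, stood at 0.632 in KO and 0.353 in WT. Cyp20a1, a P450 without an established substrate, was 3.57-fold higher at 0.294 in KO and 0.0824 in WT by its probe at position 1425 (1.84, or 0.83 after normexp correction). Its other probe, at position 918, was well above background in the knockout only, at 0.0486 in KO against 0.0511 in WT, and shows no such difference.

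Groupings by sex bias, fatty acid epoxidation and place in the liver lobule cut across the families. Of 5 male-biased genes 2 were higher (Cyp4a12a and Cyp4a12b), 2 were lower (Cyp7b1 and Cyp2u1) and Cyp2d9 lay near 0. Of 8 measured female-biased genes 2 were higher (Cyp3a16 and Cyp3a41b) and 5 were lower (Cyp2b9, Cyp2b10, Cyp2b13, Cyp2c39 and Cyp17a1). Both lists thus held genes of either direction. The arachidonate epoxygenases had 0 higher and 2 lower of 6, and the genes of the zone around the central vein 1 higher and 4 lower of 8, with medians of -0.18 and -0.47. The lists share members with the families above and are not separate evidence.

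In all, 21 members were below background on both arrays, among them Cyp1a1, Cyp2c65, Cyp2c66, Cyp2j11, Cyp2w1, Cyp3a44, Cyp4f39, Cyp4f40 and Cyp4x1. Cyp2c55, a form that CAR and PXR induce, was well above background in the knockout alone, at 0.136 against 0.0569 in wild type, a level at least 2.30-fold higher. It runs against the other measured Cyp2c genes, none of which was called higher.

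The electron donors and haem enzymes that P450s depend on had 2 higher and 5 lower of 18 measured genes (11.1% and 27.8%), with a median of -0.31. Over all measured genes the shares were 8.42% and 13.4%, with a median of -0.11. Spike-in scaling would move each difference up by 0.78, and the lowest of the list was -0.86, so none would then be called lower. Values under loess are not given for this list. Por, the reductase that feeds all microsomal P450s, stood at 22.1 in the knockout and 37.5 in wild type, 1.70-fold lower. Alas1, the rate-limiting enzyme of haem synthesis in liver, stood at 26.4 in KO and 47.8 in WT, 1.81-fold lower with both probes negative. Fdx1, the ferredoxin of mitochondrial P450s, and the haem synthesis enzymes Urod and Cpox were 1.52- to 1.53-fold lower. Hmox1, which breaks haem down, stood at 1.67 in KO and 0.986 in WT, 1.69-fold higher, and Cyb5r1, a cytochrome b5 reductase, at 2.75 in KO and 0.603 in WT, 4.55-fold higher. Cyb5a, the cytochrome b5 of the endoplasmic reticulum, stood at 208 in KO and 299 in WT, just short of a call.

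Of 24 measured regulators of P450 genes 1 was higher and 8 were lower (4.17% and 33.3%), with a median of -0.40. Over all measured genes the shares were 8.42% and 13.4%, with a median of -0.11. Spike-in scaling would move each difference up by 0.78. Nr1i3 (-0.81) would then lie near 0, while Onecut1 (-1.90) and Dbp (-1.83) would still be called lower. Onecut1, a hepatocyte transcription factor, stood at 1.05 in the knockout and 3.90 in wild type, 3.73-fold lower and lower by both probes. Ppara, the fatty acid receptor, stood at 7.34 in KO and 16.0 in WT, 2.18-fold lower over 3 probes between -1.22 and -1.06. Nr1i3, the receptor CAR, stood at 7.85 in KO and 13.8 in WT, 1.75-fold lower, while Nr1i2, the receptor PXR, stood at 1.02 in KO and 1.30 in WT (-0.36). The clock-controlled factors Dbp (9.87 in KO and 35.1 in WT), Hlf (1.30 in KO and 3.13 in WT) and Tef (17.8 in KO and 35.6 in WT), whose liver levels change over the day, were 3.55-, 2.41- and 2.00-fold lower. Nr0b2, the bile acid-induced repressor SHP, stood at 2.11 in KO and 1.30 in WT, 1.62-fold higher. The hour of sampling is not given for either liver, and its part in these values was not tested.

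Where a transcript had several probes, their place in it moved with the result. There were 16 members with several measured probes, of which 6 had probes of opposite sign, 5 had probes over 1 log2 unit apart, and the median spread was 0.55, well above the spot error of 0.14. For 13 of them, 2 probes of the same RefSeq transcript lay at least 100 bases apart. The 5′-most probe gave a higher difference than the 3′-most probe in 12 of the 13, by a median of 0.51. The exception was Cyp2c38, at -1.80 for the 5′ and -0.57 for the 3′ probe. Cyp4a10 and Cyp4a31 are both counted among the 12, though their 3′-most probes share 44 of 47 compared bases and are not separate observations. The pair of Cyp3a11 gave 1.46 at position 1104 and 0.23 at position 1939, that of Cyp2c54 gave -0.08 at 760 and -0.95 at 1614, and that of Cyp2j6 gave 0.75 at 1326 and -0.27 at 3125. Over all 2233 genes with such pairs the 5′ probe was higher in 61.4%, by a median of 0.09, and the share was 62.4% for pairs 100 to 300 bases apart, 77.9% for 300 to 600, 66.7% for 600 to 1200 and 51.3% for 1200 or more. The part of probe position in the differences of genes read by 1 probe was not tested.

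**Figure D3:**
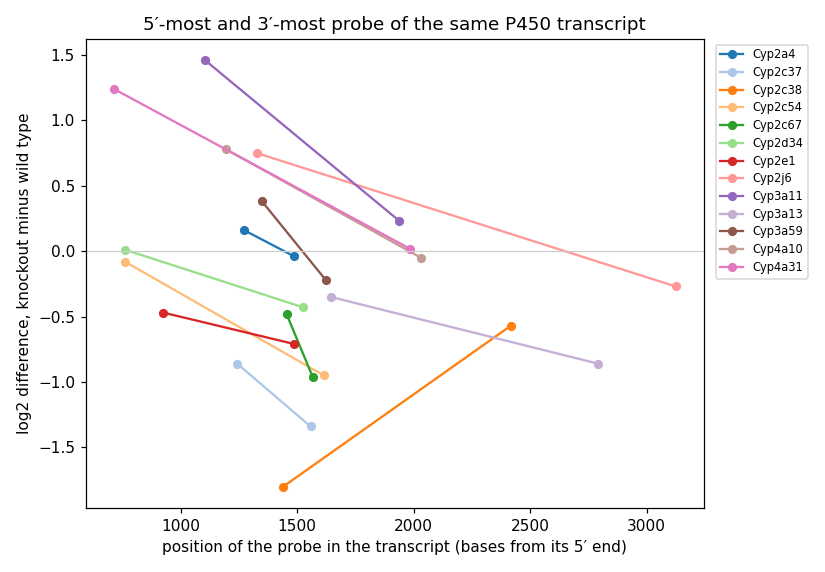
Log2 difference, knockout minus wild type, of the 5′-most and 3′-most probe of the same transcript, joined by a line, against the probe's position in bases from the transcript's 5′ end, for the 13 P450 genes with probes at least 100 bases apart. The line descends for all but Cyp2c38, and for Cyp2a4, Cyp2j6, Cyp2d34, Cyp3a59 and Cyp4a10 it crosses 0 (at the scaling to the 75th percentile).

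Of the 38 genes called higher or lower, 24 were called the same way under the processing used here and under 7 alternatives, spike-in scaling, the stricter filter on dim probes and the choice of 5′ or 3′ probes left aside. The 7 higher ones were Cyp3a16, Cyp3a41b, Cyp4a12a, Cyp4a12b, Cyp20a1, Cyp26a1 and Cyp26b1. The 17 lower ones held all 3 measured Cyp2b genes, the Cyp2c genes Cyp2c37, Cyp2c38, Cyp2c39 and Cyp2c50, Cyp2d13, Cyp2d40, Cyp2g1, Cyp2j5, Cyp2j9, Cyp2r1, Cyp7b1, Cyp17a1, Cyp21a1 and Cyp46a1. Of the other 14 genes, 9 lost the call under loess, quantile normalization and the value table, some of them elsewhere too: Cyp2c29, Cyp2c67, Cyp2c68, Cyp2d10, Cyp2d26, Cyp2d37-ps, Cyp2e1, Cyp3a13 and Cyp4f14, all of them lower. Of these 7 alternatives, 2 genes, Cyp2s1 and Cyp4f16, lost it under normexp correction alone, and 3 genes, Cyp2u1, Cyp3a11 and Cyp4a31, with the brightest probe alone.

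**Figure D4:**
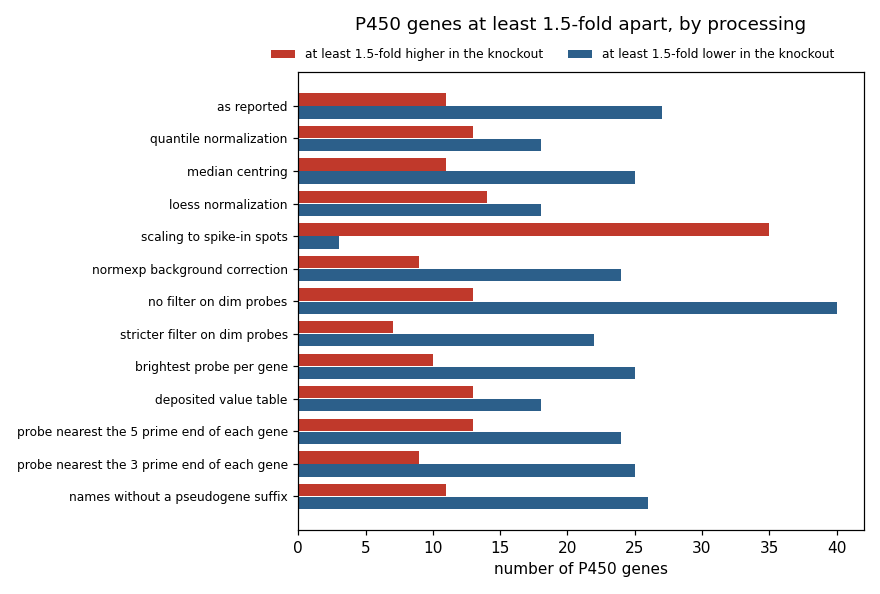
Number of measured P450 genes at least 1.5-fold higher (red) and lower (blue) in the knockout under the processing used here (top) and each alternative. Lower genes outnumber higher ones in every setting except scaling to spike-in spots, where 35 are higher and 3 lower.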

How the data were processed

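Liver RNA of 1 Drp1 knockout and 1 wild type sample was labelled with Cy3 after amplification and run on Agilent mouse genome arrays of 1 slide, per the labels' protocols and the file headers. The values are spot intensities deposited by the authors as Agilent Feature Extraction wrote them, background-subtracted and detrended per the file headers. Version 9.5.1.1 is named in the submitters' processing notes and module version 10.7.1.1 in the file headers. The authors' deposited series table gives linear intensities that track the scanner values (Spearman 1.0000 for the knockout, 0.9999 for wild type, both columns with a median of 45.9).

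Log2 signals were set relative to the 75th percentile of each array's gene spots, outlier spots were dropped (190 knockout, 183 wild type), and copies of a probe were averaged. A probe was measured where at least 50% of its spots were well above background, as 57.1% of probes were on the knockout and 50.6% on the wild type array. Differences of a gene's measured probes were averaged. Where only 1 array measured a gene, the dim side was taken as its own signal or, if greater, that array's faintest signal well above background, giving "at least N-fold". No test was possible with 1 array per group, and the number of arrays limits how precise any value is. The counting was tested on simulated data. The members, gene lists and motifs were chosen with earlier results of these data known. Full values are given for members at least 1.5-fold apart, for the extremes of each family or list and for members whose probes disagree. Beyond them, Cyp2d22, Cyp2a12 and other members were named after their values were seen.

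Alternatives were quantile normalization, median centring, loess (span 0.3), spike-in scaling (8 probes), normexp with an offset of 50 (limma 3.58.1), no filter or a stricter filter on dim probes (above the 25th percentile), the brightest probe, the value table, and names without a pseudogene suffix. The 5′-most and 3′-most probe per gene were added after seeing the data. Other genes were named through RefSeq of GRCm38.p6, which also gave the promoters; probe positions are mm9, as in the files, and transcript positions are those of the array's design. Exon and UTR annotation and protein sequences were not used here. Python 3.11.15 and R 4.3.3 were used.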

Additional observations from a re-analysis of the deposited data

How the results depend on the processing

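The counts of 11 higher and 27 lower P450 genes moved by at most 1.5 times under quantile normalization, median centring, loess, normexp, no filter on dim probes, the brightest probe, the value table, the 5′-most and the 3′-most probe and names without a pseudogene suffix. With the stricter filter, which left 61 genes, 7 were higher. Under spike-in scaling 35 were higher and 3 lower. The median of -0.20 moved to -0.02 under quantile normalization and in the value table, to 0.00 under loess and to 0.57 under spike-in scaling, as the median of all genes moved to -0.02, 0.00 and 0.67. Spike-in scaling, which adds 0.78 to each difference, turned 12 genes called lower to the other side of 0: Cyp2c29 (0.02), Cyp2d13 (0.01), Cyp46a1 (0.02), Cyp2c67 (0.06), Cyp2j9 (0.07), Cyp2c68 (0.08), Cyp2d37-ps (0.09), Cyp2r1 (0.10), Cyp2d26 (0.11), Cyp3a13 (0.17), Cyp2d10 (0.19) and Cyp2e1 (0.19). No called gene changed sign under any other alternative. No paired analysis was possible because each group has 1 array, and the slide could not be a block for the same reason. For dim members the fainter signal, of wild type for Cyp26a1 and Cyp20a1 and of the knockout for Cyp2g1, lies near that array's lowest level well above background, which limits the precision of their folds.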
